A study of Drosophila melanogaster with 17 samples.

Results

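The 9 genes described here encode neuropeptides that have been tied to feeding, arousal or energy balance in flies, namely SIFa, Dsk, NPF, sNPF, Tk, CCHa1, CCHa2, Akh and CNMa. They are 9 of the 17559 genes in the count table and were found there by symbol, and all 9 had counts in every library. The genes were chosen by their roles and by their measured levels in earlier results of the same libraries, so the fold changes and adjusted p-values below describe the fit and are not independent evidence on the members.

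Brains of flies aged 10 days after eclosion were dissected and their RNA was sequenced. In all 5 genotypes the nSyb-Gal4 driver, which is active in neurons, was present. It was alone in the control (nSyb-Gal4>+) and drove 2 copies of human tyrosyl-tRNA synthetase in TyrRS-WT, 2 copies of the same protein with a disrupted nuclear localization signal in TyrRS-WT∆NLS, 1 copy of the neuropathy mutant in TyrRS-E196K, and 3 copies of that mutant with the disrupted signal in TyrRS-E196K∆NLS. The control and both wild-type genotypes had 3 libraries each, and both mutant genotypes had 4. Copy number differed between TyrRS-E196K and every other genotype, so copy number and the form of the protein cannot be told apart. The number of copies is not a measure of the protein made, which was not analysed here. The paper reports similar expression of the human transgenes under this driver, apart from a slightly lower level of TyrRS-WT∆NLS. The labels do not say whether libraries of a genotype came from separate groups of flies, and p-values measure the spread between these libraries.

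Neuropeptides are cut from larger precursors, packed into dense-core vesicles and released to act on G protein-coupled receptors, often far from the cell that made them. In the fly brain several of these peptides come from a handful of neurons: SIFamide from a few cells of the pars intercerebralis whose branches reach most of the brain, drosulfakinin (from Dsk) largely from insulin-producing and other medial cells, and neuropeptide F from a small set of cells that includes large dorsolateral neurons. Short neuropeptide F and the tachykinins are made by many more neurons. Akh is made outside the brain, in the corpora cardiaca, a gland tied to it by nerves. A bulk brain library cannot tell fewer cells of a type from less RNA in each cell.

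Libraries held 29380481 to 56030758 counts on genes, and a member had between 120 and 23196 counts in a library. Levels are in CPM, counts divided by library size, with library sizes scaled by the trimmed mean of M-values, and a gene was called when edgeR's quasi-likelihood test gave an adjusted p-value under 0.05 over the 16163 genes tested. The summed level of 5 neuron markers lay between 4219 and 6200 CPM in every library, and no library lacked them. A pair of TyrRS-E196K libraries stood apart on other markers. Replicate 4 had 78.7 CPM of roX1, a male-specific RNA, against 14.5 to 25.8 CPM in the other 16 libraries, and replicate 3 had 1900 CPM of the yolk protein gene Yp1 against 3571 to 8428 CPM. A TyrRS-WT∆NLS column carries the number 19, which no label has, and it is named here by that number. A label of the same genotype has no column, and its number is that of a TyrRS-WT∆NLS library the paper removed as an outlier.

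Between TyrRS-E196K and control, 3 of the 9 peptide genes were called, all lower (SIFa, Dsk and NPF), beside 6.42% of all genes called in either direction. The median log2 fold change of these 9 was -0.30, and over all genes tested it was 0.00. Against TyrRS-E196K∆NLS, 4 of the 9 were called, all lower (SIFa, Dsk, sNPF and Akh), beside 5.70% of all genes. Against TyrRS-WT, SIFa alone among the 9 was called, beside 1.55% of all genes. All 9 averaged at least 1 CPM. Of the 9371 genes that did, 410 were called higher and 458 lower in TyrRS-E196K against control. Against TyrRS-E196K∆NLS 300 of them were called higher and 404 lower, and against TyrRS-WT 73 higher and 110 lower.

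**Figure D1:**
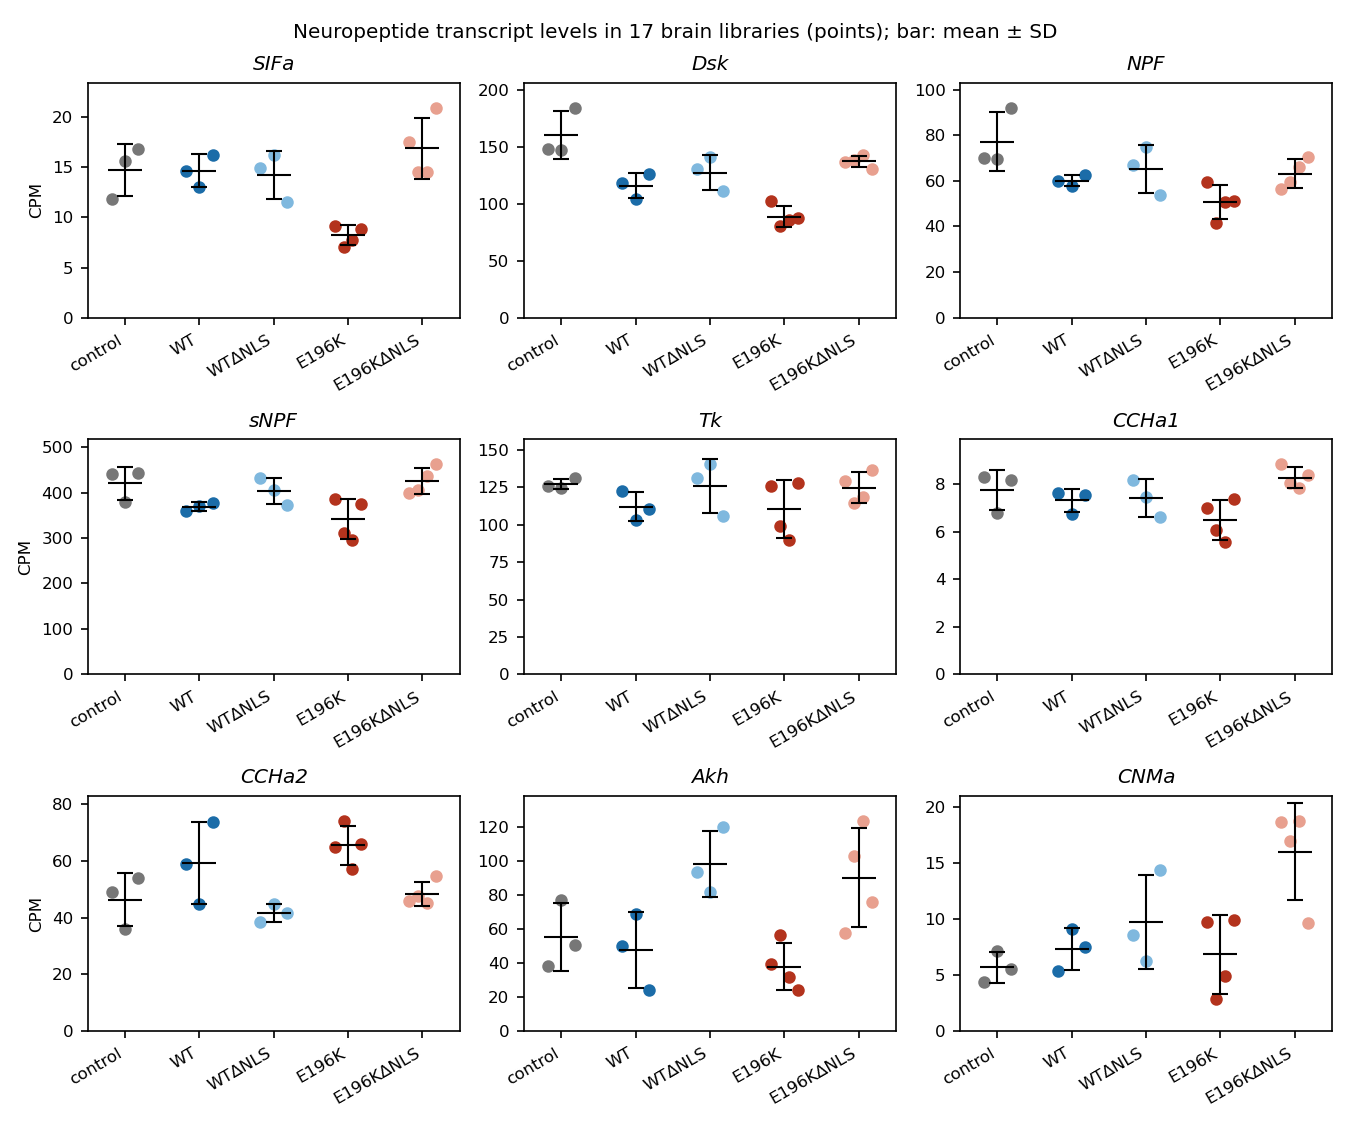
Levels of the 9 peptide genes in CPM (vertical axes, from 0) in the 17 libraries (points) of 5 genotypes, with the mean and SD of each genotype (bars). The 4 TyrRS-E196K libraries sit between 7.05 and 9.18 CPM of SIFa, below all 13 others, whereas Akh and CNMa spread widely within genotypes.

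SIFa encodes SIFamide, a peptide that in flies acts on courtship, sleep and appetite. Its level was 11.9, 15.6 and 16.8 CPM in the control libraries and 9.18, 7.05, 7.75 and 8.89 CPM in TyrRS-E196K. In TyrRS-WT it was 14.7, 13.0 and 16.3 CPM, and in TyrRS-WT∆NLS 14.9, 16.2 and 11.5 CPM. TyrRS-E196K∆NLS had 17.6, 14.5, 14.5 and 20.9 CPM. All 4 TyrRS-E196K libraries were therefore below all 13 libraries of the other genotypes, and those other genotypes overlapped one another. How many of all genes separate in this way was not counted, for SIFa or for the genes below.

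SIFa was 1.80-fold lower in TyrRS-E196K than in control (log2 fold change -0.85 ± 0.16 SE, adjusted p = 0.0051 by edgeR's quasi-likelihood test). It was 1.78-fold lower than in TyrRS-WT (-0.83 ± 0.16, edgeR adjusted p = 0.0114) and 2.05-fold lower than in TyrRS-E196K∆NLS (-1.04 ± 0.15, edgeR adjusted p = 0.00045). TyrRS-E196K∆NLS differed from control by 0.19 ± 0.16 and TyrRS-WT by -0.01 ± 0.17, and neither passed the test. Without TyrRS-WT replicate 3 the difference from TyrRS-WT was -0.75 with an edgeR adjusted p of 0.074.

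The difference that goes with the nuclear localization signal was itself compared between mutant and wild-type protein. For SIFa this interaction was -1.08 ± 0.23 on the log2 scale (adjusted p = 0.0214, edgeR), the 1 call among the 9 genes beside 1.45% of all genes. The matching difference in the wild-type protein, TyrRS-WT against TyrRS-WT∆NLS, was 0.04 ± 0.17. The interaction missed the threshold without TyrRS-WT replicate 1 (adjusted p = 0.0545), without TyrRS-WT replicate 3 (0.0712) and without the TyrRS-WT∆NLS library numbered 19 (0.0593), all by edgeR. The copies of transgene also differ, 1 against 3 in the mutant pair and 2 against 2 in the wild-type pair.

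The exons of SIFa lie on chromosome 2R, from 24577566 to 24578143 on the minus strand of BDGP6, and 111 of their 526 bases are also exon of Start1 on the opposite strand. The libraries were not strand-specific, so reads in that stretch cannot be assigned to one gene by strand. Exons of the other 8 peptide genes overlap no exon of another gene. SIFaR, the receptor of SIFamide, had 40.2 ± 1.97 CPM in TyrRS-E196K (SD, n = 4) and 41.6 ± 7.18 CPM in control (n = 3).

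The genes whose levels were most like SIFa across the 17 libraries were natalisin, another neuropeptide gene (Pearson r = 0.943 of log2 CPM), AstA, which encodes allatostatin A (0.936), and Jheh3 (0.916), a juvenile hormone epoxide hydrolase gene. None of them stayed among the nearest by Spearman's rho, which were Prx6005 (0.909), CG2680 (0.904) and mRpL24 (0.887). Natalisin was at 33.6 ± 3.59 CPM in TyrRS-E196K (SD, n = 4) and 49.2 ± 4.55 CPM in control (n = 3), and AstA at 57.9 ± 6.10 and 77.5 ± 4.18 CPM. These coefficients are taken over libraries of all genotypes, which share their normalization, and are a description.

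Dsk encodes drosulfakinin, the fly relative of cholecystokinin and a satiety signal. The control libraries had 149, 148 and 185 CPM and the TyrRS-E196K libraries 102, 80.4, 85.5 and 87.4 CPM. TyrRS-WT had 118, 104 and 126 CPM, and TyrRS-WT∆NLS 130, 141 and 111 CPM. TyrRS-E196K∆NLS had 137, 138, 143 and 131 CPM. The TyrRS-E196K libraries were below every other library, and every transgenic library was below all 3 controls.

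Dsk was 1.80-fold lower in TyrRS-E196K than in control (log2 fold change -0.85 ± 0.10 SE, edgeR adjusted p = 0.00013) and 1.55-fold lower than in TyrRS-E196K∆NLS (-0.63 ± 0.10, edgeR adjusted p = 0.00071). Against TyrRS-WT the difference was -0.39 ± 0.10 and missed the threshold (adjusted p = 0.0868, edgeR). In TyrRS-WT itself Dsk was 1.38-fold lower than in control (-0.46 ± 0.11, edgeR adjusted p = 0.0383), the only one of the 9 called in that comparison, beside 2.33% of all genes. That call was lost in 7 of 25 alternative settings, among them the fits without control replicate 1, control replicate 3, TyrRS-WT replicate 1 and TyrRS-WT replicate 2. The summed level of 7 retina markers was 5357 to 6625 CPM in TyrRS-WT and 9571 to 11810 CPM in control, with a negative log2 difference for all 7, a median of -0.91 and 0 called by edgeR. Their part in the Dsk difference was not tested.

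Drosulfakinin has 2 receptor genes here, CCKLR-17D1 and CCKLR-17D3. Of the 11 receptor genes only CCKLR-17D3 was called in any comparison. These were TyrRS-E196K against control and against TyrRS-E196K∆NLS, beside 6.42% and 5.70% of all genes. CCKLR-17D3 was at 18.4, 22.2 and 22.8 CPM in control and at 30.7, 27.9, 26.4 and 30.1 CPM in TyrRS-E196K. In TyrRS-E196K∆NLS it was at 21.1, 21.6, 21.7 and 23.5 CPM, in TyrRS-WT at 20.7, 24.3 and 26.1 CPM, and in TyrRS-WT∆NLS at 25.1, 26.4 and 21.7 CPM. The TyrRS-E196K libraries were above all libraries of control and TyrRS-E196K∆NLS, opposite in direction to Dsk, while the highest TyrRS-WT∆NLS library (26.38 CPM) was level with the lowest TyrRS-E196K library (26.35 CPM).

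CCKLR-17D3 was 1.36-fold higher in TyrRS-E196K than in control (log2 fold change 0.44 ± 0.10 SE, edgeR adjusted p = 0.0145) and 1.31-fold higher than in TyrRS-E196K∆NLS (0.39 ± 0.09, edgeR adjusted p = 0.0174). The first call was lost without control replicate 1 and when only the libraries of both genotypes were fitted, and the second without TyrRS-E196K∆NLS replicate 1. CCKLR-17D1 differed from control by 0.14 in TyrRS-E196K and was not called.

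Dsk varied most like Pdf (r = 0.936 over 17 libraries), which encodes the clock neuropeptide pigment-dispersing factor, and like the neuropeptide gene Trissin (0.918) and CG9471 (0.916). By Spearman's rho the nearest were Pdf (0.939), CG31637 (0.922) and AstC (0.89). Pdf was at 50.5 ± 5.45 CPM in TyrRS-E196K (SD, n = 4) and at 200 ± 41.2 CPM in control (n = 3), a larger difference than that of any of the 9 genes in that comparison. Trissin was at 24.9 ± 2.15 and 49.98 ± 4.47 CPM.

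NPF encodes neuropeptide F, the fly relative of neuropeptide Y, which acts on feeding, reward and sleep. Control libraries had 69.8, 69.6 and 92.0 CPM and TyrRS-E196K libraries 59.6, 41.6, 50.7 and 51.3 CPM. TyrRS-WT had 60.1, 57.6 and 62.6 CPM, TyrRS-WT∆NLS 66.8, 74.8 and 53.7 CPM, and TyrRS-E196K∆NLS 56.4, 59.5, 66.1 and 70.3 CPM. TyrRS-E196K and TyrRS-WT libraries were all below the controls, while the TyrRS-E196K range reached into those of the 3 other transgenic genotypes.

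NPF was 1.52-fold lower in TyrRS-E196K than in control (log2 fold change -0.60 ± 0.13 SE, edgeR adjusted p = 0.0131). It did not pass the test against TyrRS-WT (-0.24 ± 0.13) or TyrRS-E196K∆NLS (-0.31 ± 0.12), nor in TyrRS-WT against control (-0.36 ± 0.14). The call rested on control replicate 3, the highest library: without it the difference was -0.46 with an edgeR adjusted p of 0.0978, and with only the libraries of both genotypes the adjusted p was 0.056. Its receptor gene NPFR had 21.01 ± 2.84 CPM in TyrRS-E196K (SD, n = 4) and 19.3 ± 0.216 CPM in control (n = 3). The genes most like NPF were CG15522 (r = 0.913 over 17 libraries), Hug (0.898), which encodes hugin peptides that curb feeding, and Dsk (0.893). By Spearman's rho the nearest were mrj (0.909), Hug (0.902) and Gpa2 (0.877).

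**Figure D2:**
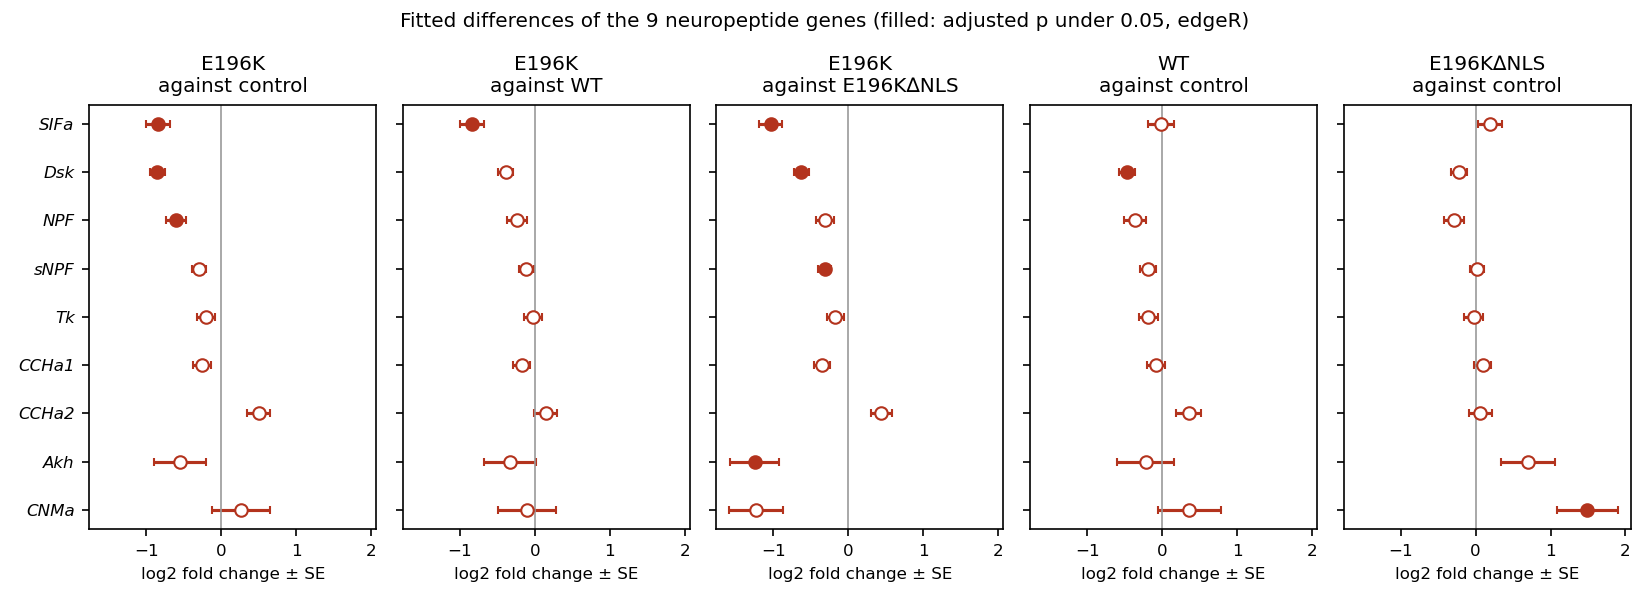
Fitted log2 fold changes with standard errors (horizontal axes) of the 9 genes (rows) in 5 comparisons, with filled points for adjusted p under 0.05 in edgeR's quasi-likelihood test. SIFa is filled in all 3 panels that compare TyrRS-E196K with another genotype, at -0.85, -0.83 and -1.04.

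sNPF encodes short neuropeptide F, which promotes feeding and modulates many brain circuits, and it had the highest CPM of the 9. It was at 440, 379 and 444 CPM in control, 359, 371 and 378 CPM in TyrRS-WT, and 387, 311, 297 and 374 CPM in TyrRS-E196K. In TyrRS-WT∆NLS it was at 431, 406 and 373 CPM and in TyrRS-E196K∆NLS at 399, 405, 437 and 462 CPM. The TyrRS-E196K libraries were below all TyrRS-E196K∆NLS libraries and overlapped the controls through replicate 1.

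sNPF was 1.24-fold lower in TyrRS-E196K than in TyrRS-E196K∆NLS (log2 fold change -0.32 ± 0.09 SE, edgeR adjusted p = 0.048). That call held in 10 of 25 alternative settings and after leaving out 5 of the 17 libraries in turn, with adjusted p from 0.0127 to 0.144. Against control the difference was -0.30 ± 0.10 (edgeR adjusted p = 0.076). The genes most like sNPF were CDase (r = 0.917 over 17 libraries), a ceramidase gene, alrm (0.917), a marker of astrocyte-like glia, and CG4829 (0.915). By Spearman's rho the nearest were CG4829 (0.917), CDase (0.914) and Hexo2 (0.904). The glial gene alrm was itself called lower in TyrRS-E196K, by -0.445 against control and -0.53 against TyrRS-E196K∆NLS. It was the only one of 5 glial markers called in either comparison: Gs2 (-0.14 and -0.26) and Eaat1 (-0.12 and -0.11) had negative and repo (0.08 and 0.19) and moody (0.04 and 0.17) positive differences. The summed level of the 5 was 2378 to 2693 CPM in TyrRS-E196K, 2671 to 2900 CPM in control and 2626 to 3096 CPM in TyrRS-E196K∆NLS. Their part in the result was not tested. The receptor gene sNPF-R varied little, between 51.8 and 63.0 CPM over the 17 libraries.

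Tk encodes tachykinins, which act on olfaction, aggression and gut signalling, and it was called in no comparison. Control libraries had 126, 124 and 131 CPM and TyrRS-E196K libraries 126, 98.9, 89.5 and 128 CPM. The difference between them was -0.20 ± 0.12 on the log2 scale, and replicates 2 and 3 of TyrRS-E196K were the low ones. The receptor genes TkR99D and TkR86C lay between 28.9 and 39.5 CPM and between 15.98 and 20.02 CPM over the 17 libraries. The genes most like Tk were CG10479 (r = 0.885), 7B2 (0.872) and amon (0.872), of which amon is a prohormone convertase that cuts peptide precursors and 7B2 its helper protein. By Spearman's rho the nearest were CG10479 (0.89), 7B2 (0.855) and Caf1-105 (0.853).

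CCHa1 and CCHa2 encode related peptides of gut and brain, and CCHa2 links nutrition to insulin release in larvae. CCHa1 was at 8.30, 6.77 and 8.18 CPM in control and at 6.998, 6.06, 5.55 and 7.36 CPM in TyrRS-E196K. In TyrRS-E196K∆NLS it was at 8.82, 8.04, 7.83 and 8.37 CPM, above all TyrRS-E196K libraries. That difference of -0.35 ± 0.11 on the log2 scale did not pass the test (edgeR adjusted p = 0.0665).

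CCHa2 had all TyrRS-E196K libraries above all controls, a separation that was not counted over all genes. It was at 48.9, 35.9 and 54.0 CPM in control and at 64.9, 74.1, 57.3 and 65.8 CPM in TyrRS-E196K. TyrRS-WT had 59.1, 44.9 and 73.6 CPM, TyrRS-WT∆NLS 38.4, 44.9 and 41.7 CPM, and TyrRS-E196K∆NLS 45.9, 47.8, 45.2 and 54.6 CPM. The difference from control was 0.50 ± 0.15 on the log2 scale (edgeR adjusted p = 0.0654) and that from TyrRS-E196K∆NLS 0.44 ± 0.14 (0.0869), and neither passed the test. Summed levels of 5 midgut markers ranged from 10.3 to 137 CPM in TyrRS-E196K and from 1.10 to 797 CPM in control, and their part in the CCHa2 levels was not tested.

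The receptor genes CCHa1-R and CCHa2-R were called in no comparison and stood at 12.8 and 9.67 CPM on average over the 17 libraries. The genes most like CCHa1 were zyd (r = 0.907), alrm (0.899) and Nplp1 (0.897), a neuropeptide-like precursor gene. Those most like CCHa2 were Drl-2 (0.817), Scm (0.815) and Flo2 (0.806). By Spearman's rho the nearest to CCHa1 were zyd (0.919), Nplp1 (0.912) and CG4950 (0.895). For CCHa2 they were rdo (0.846), CG8878 (0.821) and vlc (0.819), with none kept.

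Akh encodes adipokinetic hormone, the fly counterpart of glucagon, which mobilizes fat and sugar stores. Its level was 39.3, 56.5, 31.6 and 24.3 CPM in TyrRS-E196K and 57.6, 103, 124 and 76.3 CPM in TyrRS-E196K∆NLS. It was 38.4, 77.1 and 50.6 CPM in control, 50.3, 68.8 and 23.9 CPM in TyrRS-WT, and 94.0, 81.9 and 120 CPM in TyrRS-WT∆NLS. All TyrRS-E196K libraries were below all TyrRS-E196K∆NLS libraries, the nearest pair being 56.5 and 57.6 CPM, and all TyrRS-WT libraries were below all TyrRS-WT∆NLS libraries.

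Akh was 2.38-fold lower in TyrRS-E196K than in TyrRS-E196K∆NLS (log2 fold change -1.25 ± 0.33 SE, edgeR adjusted p = 0.0364). The call was lost in 6 of 25 alternative settings: with a robust estimate of the dispersion (adjusted p = 0.0733) and without any one of TyrRS-E196K replicates 1, 3 and 4 or TyrRS-E196K∆NLS replicates 2 and 3. The difference between TyrRS-WT and TyrRS-WT∆NLS was -1.05 ± 0.38 and was not called (edgeR adjusted p = 0.343). The SD of log2 Akh within genotypes was 0.53, higher than in 93.8% of the 9371 genes averaging 1 CPM or more, whose median SD was 0.14.

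Akh varied almost as CG14075 did (Pearson r = 0.989 and Spearman rho = 0.98 over 17 libraries, and r = 0.99 without the 2 libraries farthest from the median of Akh). Within genotypes r was 0.981. CG14075 had 46.6, 58.6, 36.7 and 31.1 CPM in TyrRS-E196K and 56.7, 113, 122 and 80.8 CPM in TyrRS-E196K∆NLS. The next genes were CG8908 (r = 0.883) and CG7509 (0.81), and by Spearman's rho CG8908 (0.892) and GstE1 (0.838).

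Of the markers of the glands attached to the brain, jhamt, a juvenile hormone synthesis gene of the corpora allata, ran with Akh (r = 0.792, rho = 0.794 over 17 libraries, r = 0.675 without the 2 farthest libraries and 0.682 within genotypes). It had 12.0, 16.7, 10.8 and 6.48 CPM in TyrRS-E196K and 11.3, 41.1, 39.6 and 25.8 CPM in TyrRS-E196K∆NLS, and was called lower (log2 fold change -1.36 ± 0.37 SE, edgeR adjusted p = 0.0424). CG8317, which encodes limostatin of the corpora cardiaca, did not run with Akh over the 17 libraries (r = -0.089, rho = -0.098). Within genotypes its r with Akh was 0.318 and its rho 0.375. CG8317 was called higher in TyrRS-E196K than in TyrRS-E196K∆NLS (1.24 ± 0.30, edgeR adjusted p = 0.0219). The part of attached gland tissue in the Akh levels was not tested.

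AkhR, whose main known site is the fat body, had a wide range too, from 52.5 to 112 CPM, and was called in no comparison. Its correlation with Akh was -0.137 over the 17 libraries and -0.445 within genotypes. The summed level of 6 fat body markers was 10260 to 31300 CPM in TyrRS-E196K, 22550 to 30720 CPM in control and 32910 to 46550 CPM in TyrRS-E196K∆NLS, so that all TyrRS-E196K∆NLS libraries lay above those of both other genotypes. Nearly all of each sum was yolk protein RNA. Yp1, Yp2 and Yp3 with roX1 and roX2 summed to 10280 to 31310 CPM in TyrRS-E196K and 32930 to 46550 CPM in TyrRS-E196K∆NLS. By edgeR 0 of the 6 were called between the mutant genotypes, with 2 positive and a median log2 difference of -0.61 for TyrRS-E196K. The part of these markers in the differences between those genotypes was not tested.

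**Figure D3:**
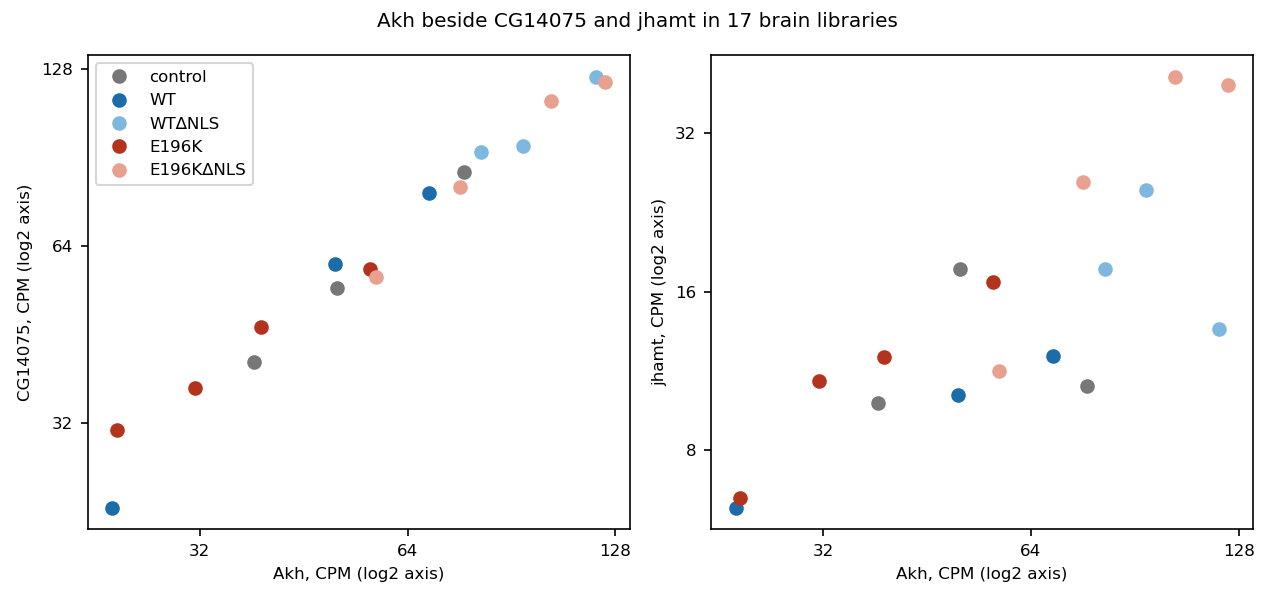
Level of Akh (horizontal axes) beside CG14075 and jhamt (vertical axes), all in CPM on log2 axes, with 1 point for each of the 17 libraries coloured by genotype. Akh and CG14075 fall along 1 line (r = 0.989), and jhamt follows more loosely (r = 0.792).

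CNMa encodes CNMamide, which in flies is linked to hunger for amino acids. It was at 4.35, 7.11 and 5.57 CPM in control and at 18.7, 16.95, 18.7 and 9.63 CPM in TyrRS-E196K∆NLS. TyrRS-WT had 5.38, 9.12 and 7.48 CPM, TyrRS-WT∆NLS 8.54, 6.23 and 14.4 CPM, and TyrRS-E196K 9.69, 2.84, 4.89 and 9.91 CPM. The TyrRS-E196K∆NLS libraries were all above the controls, with replicate 4 well below its 3 companions and within the range of TyrRS-E196K.

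CNMa was higher in TyrRS-E196K∆NLS than in control by 1.49 ± 0.40 on the log2 scale (edgeR adjusted p = 0.0441), the 1 call among the 9 in that comparison, beside 4.78% of all genes. It held in 14 of 25 alternative settings and was lost, among others, with the robust dispersion estimate (adjusted p = 0.0854), with 1 surrogate variable (0.0536), and without any 1 of the 3 controls or of TyrRS-E196K∆NLS replicates 1, 2 and 3. Against TyrRS-E196K the difference was -1.23 ± 0.36 for TyrRS-E196K and was not called (edgeR adjusted p = 0.059). The summed fat body markers, nearly all yolk protein RNA, were also higher in all TyrRS-E196K∆NLS libraries (32910 to 46550 CPM) than in all controls (22550 to 30720 CPM). Of the 6 markers 4 were positive and 0 called by edgeR, and their part in the CNMa difference was not tested. The SD within genotypes was 0.59 on the log2 scale, above that of 94.6% of genes. The genes most like CNMa, daw (r = 0.793), CG5171 (0.792) and Vps35 (0.785), were less like it by r than the closest gene of any other member was. By Spearman's rho the nearest were Apoltp (0.846), daw (0.841) and Vps35 (0.816). The receptor gene CNMaR was called in no comparison.

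In the remaining comparisons none of the 9 was called by edgeR. Of all genes edgeR called 3.76% for TyrRS-WT∆NLS against control, 1.08% for TyrRS-WT against TyrRS-WT∆NLS and 1.32% for TyrRS-E196K∆NLS against TyrRS-WT∆NLS. In the first of these 2 of the 9 had an unadjusted p under 0.05 and DESeq2 called 1 (Dsk). In the second 2 had an unadjusted p under 0.05 and in the third 0, and DESeq2 called 0 in either. The shares of all genes under these other criteria are not given. The 4 comparisons with control share the 3 control libraries, and the 3 with TyrRS-E196K share its 4 libraries.

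Per kilobase of exon, the order of levels over the 17 libraries ran from Dsk (219 CPM per kb), sNPF (160), Akh (123), NPF (104) and Tk (73.9) to CCHa2 (36.2), SIFa (25.9), CCHa1 (8.68) and CNMa (4.94). The receptor genes lay between 3.29 CPM per kb for CCHa2-R and 26.7 for AkhR. Each peptide gene except CNMa (10.5 CPM per kb for CNMaR) was above its own receptor genes. In TyrRS-E196K the order of Dsk (156) and sNPF (140) was the same, and SIFa stood at 15.6 CPM per kb. In TyrRS-E196K∆NLS, SIFa stood at 32.1 CPM per kb.

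**Figure D4:**
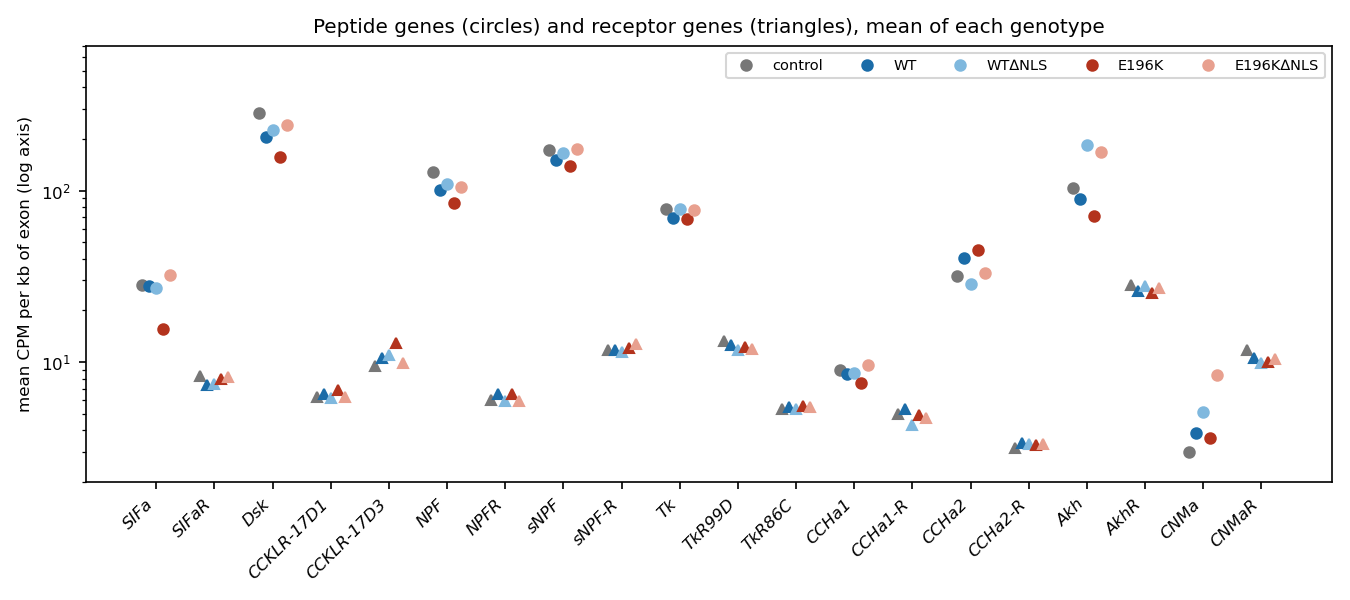
Mean level of each peptide gene (circles) and receptor gene (triangles) in each of the 5 genotypes (colours), in CPM per kilobase of exon on a log axis. The peptide genes span from CNMa (4.94 over all libraries) to Dsk (219), and the receptor genes from 3.29 to 26.7.

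Among the 11 receptor genes the fitted log2 differences of TyrRS-E196K from control ran from -0.24 (CNMaR) to 0.44 (CCKLR-17D3), with a median of 0.04. There was 1 call, beside 6.42% of all genes, and 1 unadjusted p under 0.05. The 11 all averaged at least 1 CPM, and of the 9371 such genes 410 were called higher and 458 lower. Against TyrRS-E196K∆NLS they ran from -0.08 to 0.39, with 1 call beside 5.70% of all genes. Against TyrRS-WT they ran from -0.11 to 0.28 with 0 calls by edgeR, beside 1.55% of all genes. There 1 had an unadjusted p under 0.05 and DESeq2 called 0.

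A list of 40 other neuropeptide genes, of which 39 had counts, was read beside the 9. Between TyrRS-E196K and control 18 were called lower and 3 higher, beside 6.42% of all genes called in either direction. The median over the 39 was -0.42 on the log2 scale. Pdf fell by 1.99 on the log2 scale and AstC, which encodes allatostatin C, by 1.28, whereas CG8317 rose by 1.28 and Ilp6, an insulin-like peptide gene of fat body and glia, by 0.74 (edgeR, adjusted p = 1.5e-07, 6.8e-07, 0.0315 and 0.0281).

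Against TyrRS-E196K∆NLS 18 of the 39 were called lower and 4 higher, beside 5.70% of all genes. Their median was -0.35, equal to that of the 9 peptide genes. Among genes averaging 1 CPM or more, the most negative differences were in Eh, the eclosion hormone gene (-2.67 ± 0.69), and in Pdf (-1.70 ± 0.12). Eh averaged 0.71 CPM in TyrRS-E196K, 0.51 CPM in control and 0.45 CPM in TyrRS-WT. It averaged 4.58 CPM in TyrRS-E196K∆NLS and 4.84 CPM in TyrRS-WT∆NLS, so its mean in TyrRS-E196K was not below that of control. Against TyrRS-WT 11 of the 39 were called lower and 1 higher, beside 1.55% of all genes. The most negative differences were in Ilp3, an insulin-like peptide gene of the brain's insulin-producing cells (-2.65 ± 0.16), and Pdf (-1.42 ± 0.13). Ilp3 averaged 15.9 CPM in TyrRS-E196K, 34.0 CPM in control and 100 CPM in TyrRS-WT, whose mean was thus itself above control. The interaction was called for 10 of the 39, all lower, beside 1.45% of all genes. In the comparison of TyrRS-WT with TyrRS-WT∆NLS edgeR called 0 of the 39, beside 1.08% of all genes. DESeq2 called 2 there, and 4 had an unadjusted p under 0.05.

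A list of 11 genes for making and packing peptides holds among others the convertase amon and the amidating enzyme Phm. Between TyrRS-E196K and control edgeR called 0 of them, beside 6.42% of all genes, and DESeq2 called 0. There 1 had an unadjusted p under 0.05, and the median was -0.08. Against TyrRS-E196K∆NLS, beside 5.70% of all genes, only dimm was called, lower by -0.91 ± 0.17 on the log2 scale (edgeR adjusted p = 0.0036). It encodes dimmed, a transcription factor that drives the secretory state of peptide neurons. dimm was at 2.88, 4.05, 3.84 and 3.02 CPM in TyrRS-E196K and at 5.84, 6.79, 7.99 and 5.31 CPM in TyrRS-E196K∆NLS. The control mean of dimm, 4.71 CPM, lay between those of TyrRS-E196K (3.45 CPM) and TyrRS-E196K∆NLS (6.48 CPM). Against control the difference of TyrRS-E196K was -0.45 ± 0.18 and was not called.

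**Figure D5:**
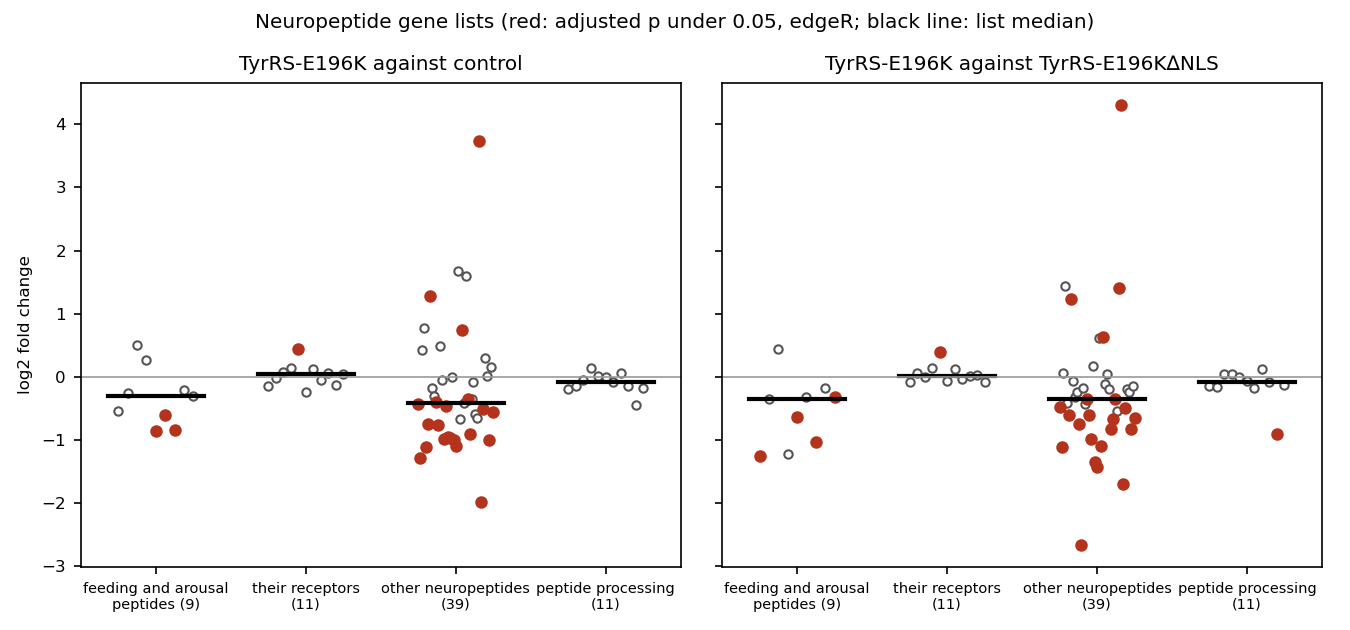
Log2 fold changes (vertical axis) of the 9 peptide genes, their 11 receptor genes, 39 other neuropeptide genes and 11 peptide-processing genes in TyrRS-E196K against control (left) and against TyrRS-E196K∆NLS (right), red where the edgeR adjusted p was under 0.05, with list medians as lines. Medians in the left panel are -0.30, 0.04, -0.42 and -0.08.

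Among themselves, Dsk and NPF ran most closely together (Pearson r = 0.893 and Spearman rho = 0.816 over 17 libraries, r = 0.833 within genotypes), followed by sNPF and CCHa1 (0.868, rho = 0.809, 0.77 within genotypes) and SIFa and Dsk (0.823, rho = 0.654, 0.59 within genotypes). CCHa2 and Akh ran in opposite directions (r = -0.727, rho = -0.75, -0.497 within genotypes). All libraries share their depth scaling, and these values are a description over 36 pairs.

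The calls that lead this account were taken again without each of the TyrRS-E196K libraries that stood apart. Without replicate 4, SIFa differed from control by -0.88, Dsk by -0.84 and NPF by -0.61 on the log2 scale (edgeR adjusted p = 0.0096, 0.00061 and 0.0287). Without replicate 3 the values were -0.82, -0.83 and -0.60 (edgeR adjusted p = 0.0175, 0.00074 and 0.032). SIFa and Dsk were called against control and against TyrRS-E196K∆NLS in all 25 alternative settings. Between TyrRS-E196K and control, 1 of 7 retina markers and 0 of 6 fat body markers had a positive log2 difference (medians -0.42 and -0.31). Of 5 muscle markers 4 were positive (median 0.13), and of 5 midgut markers 2 (-1.91). Summed retina markers were 6716 to 12030 CPM in TyrRS-E196K and 9571 to 11810 CPM in control. None of these markers was called by edgeR, and their part in the SIFa, Dsk and NPF differences was not tested. The methods name 2 sequencing batches without saying which library was in which, so no value within a batch could be given.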

How the data were processed

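The deposited table holds whole-number counts per gene for 17 brain libraries. Per the labels and methods, the authors trimmed reads from unstranded poly(A) libraries with Trimmomatic 0.32, aligned them to BDGP6 (Ensembl release 84) with TopHat2 2.0.12, counted them with HTSeq 0.6.1 and tested them with DESeq2 1.14.1, after leaving out 3 of 20 libraries as outliers. The 6 lines that name no gene were left out (reads on no feature were 2.57% to 3.80% of the counts over all lines, these included). The removal by the authors can narrow the spread within groups.

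Counts were tested here in edgeR 4.0.16 (quasi-likelihood test, R 4.3.3) in 1 fit of all 17 libraries, with TMM scaling and Benjamini-Hochberg adjustment over 16163 genes; the fit was tested on simulated data. Standard errors come from the F statistic. The members, lists and alternatives were chosen with earlier results of these data known. The genes named from other lists were at most the 2 largest rises and falls called and averaging at least 1 CPM. Likeness is Pearson's r of log2 CPM (prior count 2), with Spearman's rho where it is named. Marker genes named beside a result were chosen after their values were seen.

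The fit uses edgeR's default dispersion options. In all, 6 dispersion settings were run after the data had been seen and compared by their counts of called genes; the default was kept, and the robust estimate and a fit without a separate dispersion estimate are given as alternatives. The others were the filterByExpr filter, scaling by DESeq2 size factors, the Wald test of DESeq2 1.42.0, a fit of the compared libraries alone, a replicate block, 1 surrogate variable (sva 3.50.0), a threshold of 0.1 and each library left out. Exon lengths and positions are from Ensembl release 115 of BDGP6. Python 3.11.15 was used for summaries.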

Additional observations from a re-analysis of the deposited data

Results flagged for a closer look

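The effect of the nuclear localization signal on SIFa differed between mutant and wild-type protein by -1.08 on the log2 scale (edgeR adjusted p = 0.0214). The call was lost without TyrRS-WT replicate 1 (edgeR adjusted p = 0.0545), without TyrRS-WT replicate 3 (0.0712) and without the TyrRS-WT∆NLS library numbered 19 (0.0593). TyrRS-E196K was below TyrRS-E196K∆NLS in all 4 of its libraries, and TyrRS-WT overlapped TyrRS-WT∆NLS. Copy number differs within the mutant pair only. Among 40 groups of 4 libraries tested for a single library far from the rest, none of those of the 9 peptide and 11 receptor genes passed the criterion.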

How the results depend on the processing

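Of the 9 peptide genes, DESeq2 called 1 in TyrRS-WT∆NLS against control, 5 in TyrRS-E196K against control and 2 in TyrRS-E196K against TyrRS-WT. It called 7 in TyrRS-E196K against TyrRS-E196K∆NLS and 2 for the interaction. A threshold of 0.1 gave 5, 2 and 7 in TyrRS-E196K against control, TyrRS-WT and TyrRS-E196K∆NLS. The shares of all genes called by DESeq2 or at 0.1 are not given, so these counts have no background beside them. Fitting only the libraries compared called 0 peptide genes and 1 surrogate variable called 0 in TyrRS-WT against control, and 1 surrogate variable and the robust dispersion, a setting added after seeing the data, called 0 in TyrRS-E196K∆NLS against control. Fitting only the libraries compared called 0 receptor genes in TyrRS-E196K against control. Leaving out 1 library gave 0 to 1 peptide genes in TyrRS-WT against control, 2 to 4 in TyrRS-E196K and 0 to 1 in TyrRS-E196K∆NLS, 0 to 2 against TyrRS-WT, 2 to 5 against TyrRS-E196K∆NLS and 0 to 1 for the interaction; for receptors it gave 0 to 1 in TyrRS-E196K against control and against TyrRS-E196K∆NLS. Counts of all genes called ranged from 412 to 1633 (main 1037) in TyrRS-E196K against control, 632 to 1461 (921) against TyrRS-E196K∆NLS, 133 to 448 (250) against TyrRS-WT, 77 to 328 (175) between the wild-type pair, 79 to 457 (214) between the ∆NLS pair and 145 to 551 (234) for the interaction. Against control they ranged from 473 to 1119 (773) in TyrRS-E196K∆NLS, 134 to 754 (376) in TyrRS-WT, and 201 to 1113 (608) in TyrRS-WT∆NLS. No fold change of a peptide gene that was called turned its direction, and the receptor genes were not checked for this. The causes were not tested.

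With a replicate block 0 peptide genes were called for the interaction (SIFa -0.91, edgeR adjusted p = 0.0932) and 0 in TyrRS-E196K∆NLS against control. Same-numbered libraries did not deviate together (mean r = -0.011 over 27 pairs, from -0.556 to 0.491), so the numbers give no pairing. The library numbered 19 has a level of its own in that block and adds nothing to its estimates.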
